A study of Mus musculus with 6 samples.

Results

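Expression of the mTOR complexes and their regulators was examined in the gastrocnemius (Gas) muscle, a mixed, mostly fast-twitch calf muscle, of wild-type (WT) mice and mice with a global knockout of the microRNA miR-92b (M92KO). The gene set was chosen by name and comprised 10 genes, namely Mtor, Rptor, Rictor, Deptor, Tsc1, Tsc2, Rheb, Akt1s1, Rps6kb1 and Eif4ebp1. All 10 were present among the 34714 gene symbols of the count table, and all 10 passed the filter on low counts that left 15788 genes for testing. There were 3 WT and 3 M92KO libraries of mRNA, which came from mice 8 weeks of age that had received no treatment. By the study's general methods all mice fasted overnight before muscle was taken, which is not stated separately for the sequenced mice. The M92KO mice carried the Mir-92bem22Cd549 allele on the C57BL/6JGpt background. A global knockout lacks the microRNA in every tissue and during development, so a difference in muscle need not have arisen in muscle. The labels name the WT libraries C57, and by the study's methods the M92KO mice were male and their WT controls C57BL/6 mice matched for age. Whether the controls were littermates or of the same substrain is not given in the sources used here. Gene counts do not measure the mature microRNA, so the knockout itself was not analysed here. The p-values below measure the spread between these 6 samples.

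mTOR is a kinase that couples growth signals and nutrients to protein synthesis. It works in a pair of complexes. mTORC1 is defined by Raptor (Rptor), responds to amino acids and insulin, and drives translation through the kinase S6K1 (Rps6kb1) and the translation repressor 4E-BP1 (Eif4ebp1). mTORC2 is defined by Rictor and phosphorylates AKT and SGK kinases. DEPTOR binds mTOR in both complexes and restrains its kinase activity, and PRAS40 (Akt1s1) restrains mTORC1. The small GTPase RHEB activates mTORC1 at the lysosome, and the TSC1-TSC2 complex keeps RHEB in its inactive form. In muscle the pathway is known for its part in growth after loading and in the balance of synthesis and breakdown of protein. It is controlled largely by phosphorylation and location, which read counts do not show, so every value below is an mRNA level.

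The knockout removes both mature arms of miR-92b, which lie on the minus strand of mouse chromosome 3 (RefSeq sequences on GRCm38.p6). They are shown 5′ to 3′, with the seed, bases 2 to 8, in capitals, because the seed is what the 3′ untranslated regions (3′UTRs) of the 10 genes were searched for.
miR-92b-3p, chr3:89227126-89227147: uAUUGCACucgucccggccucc
miR-92b-5p, chr3:89227165-89227188: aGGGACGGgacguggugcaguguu
miR-92a-3p, for comparison: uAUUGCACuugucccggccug
The 3p seed is shared with 5 other mouse microRNAs in the RefSeq table, miR-25-3p, miR-32-5p, miR-92a-3p, miR-363-3p and miR-367-3p, which other genes encode. No other mature microRNA in that table had the 5p seed.

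Matches to the 3p seed were counted on the sense strand of each gene's longest 3′UTR (GENCODE M21, GRCm38) as the 8mer GTGCAATA, the 7mer GTGCAAT without its last base, the 7mer TGCAATA without its first base, and the 6mer TGCAAT without either, with each match counted once under its longest form. Of the 10 genes, 4 held a match, namely Rictor, Deptor, Tsc1 and Rps6kb1, beside 26.1% of 13664 genes with a 3′UTR. These 4 had the longest 3′UTRs of the set, from 3854 (Rps6kb1) to 7136 bases (Deptor). Those of the rest had 686 (Akt1s1) to 1925 bases (Rptor). A longer region has more places for a match, and the shares of all genes were not matched for length. A 7mer or 8mer was present in 3 of 10 (Rictor, Tsc1 and Rps6kb1) and in 13.8% of all. The single 8mer among them was in Tsc1, and 2.74% of all genes held one. For the 5p arm the 8mer was CCGTCCCA, its 7mers were CCGTCCC without the last base and, without the first base, CGTCCCA, and the 6mer was CGTCCC. Mtor held a 7mer and Rictor a 6mer, so 2 of 10 genes had any match, against 9.54% of all genes, and 1 of 10 had a 7mer or 8mer, against 5.57%. None of the 10 held the 5p 8mer, which 0.915% of all genes did. The 5 genes with a match are represented below by the longest one, or the one nearest the stop codon where several were equal, with the matched bases in capitals and 11 bases on either side. Each is exonic and in the 3′UTR, and the coordinates are those of the capitals on GRCm38.
Tsc1, 3p 8mer, chr2:28687457-28687464, plus strand: catttgaacctGTGCAATAtgaggccaaat
Rictor, 3p 7mer, chr15:6796885-6796891, plus strand: cttcaggttgtTGCAATAcgttgttaaag
Rps6kb1, 3p 7mer, chr11:86502649-86502655, minus strand: tgtgagcatccTGCAATAtaaaaacaaga
Deptor, 3p 6mer, chr15:55252681-55252686, plus strand: gaaccagcaccTGCAATctgggctactt
Mtor, 5p 7mer, chr4:148557282-148557288, plus strand: tgttacctcacCCGTCCCtggatgcagtg
Rictor held a further 7mer and a 6mer for the 3p arm, and Rps6kb1 held 2 further 7mers. Rptor, Tsc2, Rheb, Akt1s1 and Eif4ebp1 held none for either arm. A match of letters is a description of the sequence and does not show binding.

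None of the 10 genes differed between M92KO and WT mice at an adjusted p under 0.05 (edgeR quasi-likelihood test with Benjamini-Hochberg adjustment over 15788 genes), and 0% of all genes tested did. The farthest apart was Deptor, the inhibitor common to both complexes, at 75.2% of its WT level in M92KO muscle (95% confidence interval, 64.4% to 87.7%; adjusted p = 0.188). The mTOR kinase itself had the highest M92KO value relative to WT, at 116% (97.4% to 137%). The remaining 8 genes lay between 94.0% and 110.1% of WT. At an unadjusted p under 0.05, the threshold used in the study, 1 of the 10 genes (Deptor, lower) was called, beside 12.4% of all genes in either direction, 5.47% higher and 6.92% lower. Separation of the 3 M92KO from the 3 WT values was likewise seen in 1 of the 10 genes and in 18.4% of all genes. The median log2 fold change (M92KO against WT) was 0.013 over the 10 genes and -8.1e-05 over all genes tested. Counted in either direction, neither share of the 10 genes stood above that of all genes. With the DESeq2 Wald test, 1 of the 10 genes passed the adjusted threshold, again Deptor, with an adjusted p of 0.0176 and the same log2 fold change of -0.41, and 2.04% of all genes did.

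**Figure D1:**
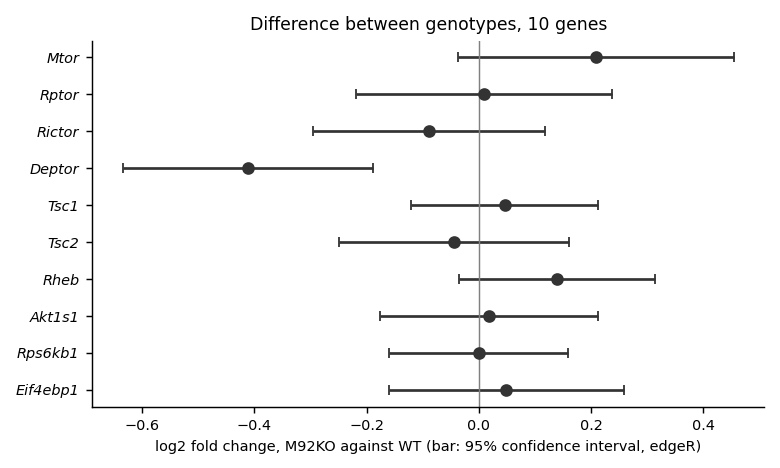
Log2 fold change of M92KO against WT (horizontal axis) with its 95% confidence interval from edgeR for each of the 10 genes. The interval of Deptor, -0.63 to -0.19, lies below 0, and the other 9 intervals include 0.

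The values below are normalized read counts (CPM), the reads of a gene per 1000000 reads of a library whose total was scaled with edgeR's TMM factor, given for replicates 1, 2 and 3 in that order. Totals ran from 38246649 to 48209846 reads in WT and from 33160508 to 37019640 in M92KO libraries. Every M92KO library was thus smaller than every WT library, and depth cannot be told apart from genotype. The 10 genes were well covered, with between 895 (Eif4ebp1) and 5559 (Akt1s1) reads per library. M92KO replicate 1 correlated least with the other libraries (mean r = 0.986 over all genes, against 0.987 to 0.989). Markers of muscle fibres summed to between 125149 and 141107 CPM in WT and between 124275 and 133035 CPM in M92KO libraries. The label was thus borne out as skeletal muscle, and these markers do not tell the gastrocnemius from other muscles.

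Mtor (chr4:148448611-148557683, plus strand), the kinase subunit of both complexes, had 60.5, 57.4 and 52.8 CPM in WT and 55.5, 68.2 and 73.5 CPM in M92KO mice. M92KO replicates 2 and 3 were above every WT value, whereas replicate 1 lay within the WT range. The means were 56.9 ± 3.87 and 65.7 ± 9.24 CPM (SD, n = 3 each), a log2 fold change of 0.21 with a standard error of 0.11. That difference did not pass the test (adjusted p = 0.488; exact permutation test, 2-sided, p = 0.3, where 0.1 is the smallest value that 3 against 3 samples allow). With any 1 library omitted it lay between 0.12 (without M92KO replicate 3; adjusted p = 0.734) and 0.32 (without M92KO replicate 1; adjusted p = 0.069), so its size depended on single libraries.

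Rptor (chr11:119602905-119899576, plus strand) encodes the scaffold that brings substrates to mTORC1. Its WT values of 53.5, 51.4 and 50.2 CPM were close together. The M92KO values of 44.0, 56.3 and 55.9 CPM lay on both sides of them, with replicate 1 lowest of all 6 libraries and the other 2 highest. The means were 51.7 ± 1.67 and 52.0 ± 6.99 CPM, and the log2 fold change was 0.0088 ± 0.10 (SE; adjusted p = 0.982). Part of an antisense transcript, Rptoros, overlaps 84 bases of its exons, and whether the counting used strand is not given in the sources used here.

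Rictor (chr15:6708379-6800401, plus strand), the defining subunit of mTORC2, had 34.5, 40.4 and 40.6 CPM in WT and 39.6, 34.3 and 34.8 CPM in M92KO mice. The groups overlapped, since WT replicate 1 and M92KO replicate 1 each stood with the other genotype. The difference, -0.089 ± 0.091 on the log2 scale, was smaller than its standard error (adjusted p = 0.747). Rictor holds 2 7mers and a 6mer for miR-92b-3p, as shown above.

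Deptor (chr15:55112317-55259271, plus strand) had 77.1, 91.6 and 92.8 CPM in WT mice. In M92KO mice it had 60.6, 72.4 and 63.6 CPM. The lowest WT library was above the highest M92KO library, so the groups did not overlap. The underlying reads were 3563, 3538 and 4429 in WT and 2106, 2370 and 2308 in M92KO libraries. The means were 87.2 ± 8.73 and 65.5 ± 6.11 CPM, a log2 fold change of -0.41 ± 0.098 (SE) with a 95% confidence interval of -0.63 to -0.19. The edgeR test gave an adjusted p of 0.188, and the exact permutation test gave 0.1, the smallest value possible. With any 1 library omitted the log2 fold change lay between -0.49 and -0.36, and offsets for the GC content and length of each gene gave -0.36. In a whole muscle, fewer cells of a type that expresses a gene and less of its RNA per cell cannot be told apart. Exons of Deptor share 303 bases with Gm9920 on the opposite strand.

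Other cell types were compared by their marker genes because some of these, like Deptor, had lower values in M92KO mice. The 5 fibroblast markers summed to between 1373 and 1741 CPM in WT and between 906 and 1290 CPM in M92KO libraries. Of these 5, 2 had an unadjusted p under 0.05, both lower. Of all genes tested, 12.4% were under that threshold in either direction, 5.47% higher and 6.92% lower. Schwann cell markers summed to between 130.3 and 179 CPM in WT and between 129.8 and 137 CPM in M92KO libraries, with 3 of 5 lower at that threshold. Of the endothelial markers, 1 of 5 was lower (796 to 864 against 706 to 878 CPM), as was 1 of 5 leukocyte markers (35.6 to 38.9 against 28.0 to 37.2 CPM). The 4 satellite cell markers summed to between 30.3 and 35.4 CPM and between 28.5 and 30.1 CPM, with 1 higher and 2 lower. No marker of slow fibres (104 to 198 against 77.9 to 160 CPM), fat cells (4.09 to 11.1 against 7.13 to 19.9 CPM) or red cells (74.0 to 223 against 143 to 336 CPM) passed it. None of these markers passed the adjusted threshold, no list had a marker at 0 in every library, and the part of these cells in the Deptor values was not tested.

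Akt1s1 (chr7:44848991-44855421, plus strand), which encodes the mTORC1 inhibitor PRAS40, had 120.3, 107 and 114 CPM in WT and 128, 109 and 109 CPM in M92KO mice. The groups overlapped. In M92KO mice the mean was 101% of WT (88.5% to 116%), so a fall as large as that of the Deptor estimate lies outside the interval. The log2 fold change was 0.018 ± 0.085 (SE; adjusted p = 0.956). Its exons share 89 bases with Tbc1d17 on the opposite strand and 73 bases with Mir707 on the same strand.

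**Figure D2:**
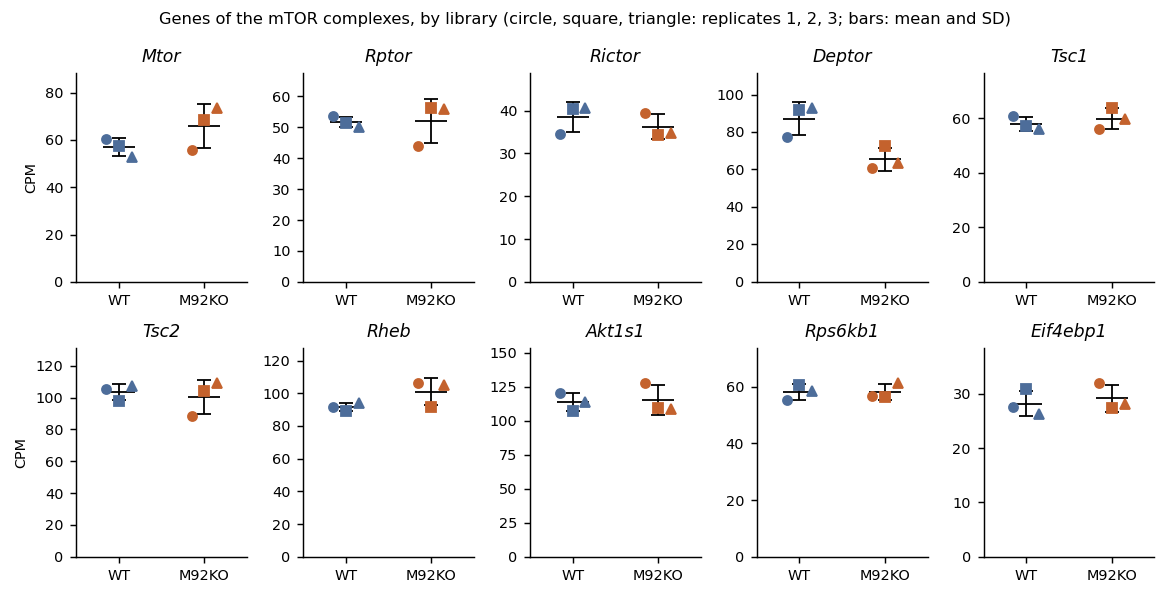
CPM of each of the 10 genes (vertical axes from 0) in the 3 WT and 3 M92KO libraries, with the mean and SD as bars and the replicate number shown by the symbol. Deptor is the gene whose M92KO points, 60.6 to 72.4 CPM, all lie below its WT points, 77.1 to 92.8 CPM, and in the other 9 panels the groups overlap.

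The upstream switch of mTORC1 showed no difference beyond the spread between libraries. Tsc1 (chr2:28641228-28691167, plus strand), the stabilizing subunit of the TSC complex, had 60.7, 56.9 and 56.0 CPM in WT and 56.0, 63.7 and 59.5 CPM in M92KO mice. It is the gene with the 8mer for miR-92b-3p, and its M92KO mean was 103% of WT, with a 95% confidence interval of 92.0% to 116% (log2 fold change 0.046 ± 0.073, SE; adjusted p = 0.850). The M92KO values fell on both sides of the WT mean of 57.9 CPM. Tsc2 (chr17:24595816-24632630, minus strand), the subunit that makes RHEB hydrolyse its GTP, had 106, 97.9 and 107 CPM in WT and 88.4, 104 and 109 CPM in M92KO mice. M92KO replicate 1 was the lowest of the 6 libraries and replicate 3 the highest. Its log2 fold change was -0.045 ± 0.090 (adjusted p = 0.885), and 693 bases of its exons overlap the neighbouring Pkd1 on the opposite strand.

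Rheb (chr5:24802823-24842624, minus strand), the direct activator of mTORC1, had 91.7, 89.2 and 93.9 CPM in WT and 106, 91.3 and 105 CPM in M92KO mice. M92KO replicates 1 and 3 were above all WT libraries and replicate 2 was not, so the groups overlapped. The means were 91.6 ± 2.34 and 101 ± 8.31 CPM, with a log2 fold change of 0.14 ± 0.076 (SE; adjusted p = 0.516).

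Neither gene of the mTORC1 substrates differed beyond the spread between libraries. Rps6kb1 (chr11:86498871-86544805, minus strand), which encodes S6K1, the kinase of ribosomal protein S6, had 55.2, 60.6 and 58.6 CPM in WT and 56.5, 56.4 and 61.3 CPM in M92KO mice. The means, 58.1 ± 2.76 and 58.1 ± 2.77 CPM, could not be told apart, and the 95% confidence interval of the M92KO level ran from 89.5% to 112% of WT (adjusted p = 0.998). Rps6kb1 holds 3 7mers for miR-92b-3p, and 155 bases of its exons overlap Rnft1 on the opposite strand. Eif4ebp1 (chr8:27260329-27276674, plus strand), which encodes the cap-dependent translation repressor 4E-BP1, was the gene with the lowest CPM, at 27.5, 30.8 and 26.2 in WT and 32.0, 27.3 and 28.1 in M92KO mice. These ranges overlapped as well, and the log2 fold change was 0.049 ± 0.092 (SE; adjusted p = 0.876).

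Dividing the CPM by the length of a gene's merged exons in kilobases gave the levels of the 10 genes relative to each other. On this scale Akt1s1 was highest at 37.2 ± 2.63 CPM per kilobase (SD, n = 6 libraries), followed by Eif4ebp1 at 13.0 ± 1.01, Rheb at 12.5 ± 0.966, Tsc2 at 10.6 ± 0.807 and Deptor at 8.60 ± 1.54. Rps6kb1 followed at 6.71 ± 0.285, Mtor at 6.07 ± 0.788, Tsc1 at 4.97 ± 0.259, Rptor at 3.85 ± 0.337 and Rictor at 2.21 ± 0.185 CPM per kilobase. With merged exons, the mRNA of mTORC2's defining subunit was thus the lowest of the set, and Akt1s1 mRNA stood apart at the top. The ranges over the 6 libraries overlapped between Eif4ebp1 and Rheb and along the chain from Tsc2 through Deptor, Rps6kb1 and Mtor to Tsc1. They did not overlap between Akt1s1 and Eif4ebp1, Rheb and Tsc2, Tsc1 and Rptor, or Rptor and Rictor. The order depended on the length used. With the longest coding transcript, 3 of the 10 genes kept their place (Akt1s1, Tsc1 and Rictor). Rheb, whose merged exons span 7721 bases but whose longest coding transcript has 1784, went from 12.5 to 54.0 CPM per kilobase. Its highest library, at 59.6, then lay above the lowest of Akt1s1, at 59.1, so the ranges of Akt1s1 and Rheb overlapped.

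**Figure D3:**
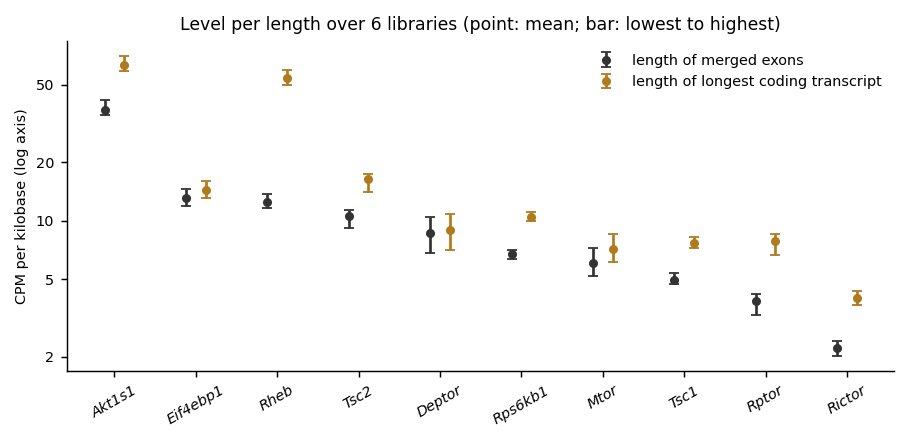
Mean CPM per kilobase over the 6 libraries (log axis) for the 10 genes, with bars from the lowest to the highest library, for the length of the merged exons and for that of the longest coding transcript. Akt1s1 is highest (37.2) and Rictor lowest (2.21) with merged exons, and Rheb differs most between the lengths (12.5 and 54.0).

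The balance of inhibitor to kinase mRNA, or of Rptor to Rictor mRNA, need not follow single genes. For this reason 4 ratios of read counts were taken within each library, where library size cancels. The counts were not divided by gene length, so the ratios compare libraries and are not a stoichiometry of mRNAs or proteins. The ratio of Deptor to Mtor counts was 1.28, 1.59 and 1.76 in WT and 1.09, 1.06 and 0.865 in M92KO mice. All 3 M92KO ratios were below all 3 WT ratios. The means were 1.54 ± 0.245 and 1.01 ± 0.123 (SD), a difference of -0.61 on the log2 scale. The exact permutation test gave p = 0.1, the smallest possible, and 0.4 after Benjamini-Hochberg adjustment over the 4 ratios, so the difference did not pass. It ran between -0.74 and -0.51 when a library was left out. The ratio contains the Deptor and Mtor values already given and is not independent of them.

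The other 3 ratios overlapped between the genotypes. Rptor to Rictor, which sets the mTORC1 scaffold against that of mTORC2, was 1.55, 1.27 and 1.24 in WT and 1.11, 1.64 and 1.61 in M92KO mice (exact permutation p = 0.8, adjusted 0.8). M92KO replicate 1 had the lowest of the 6 values and replicates 2 and 3 the highest. The Tsc1 to Tsc2 ratio was 0.574, 0.581 and 0.521 against 0.634, 0.613 and 0.544 (exact permutation p = 0.4, adjusted 0.8). Eif4ebp1 to Rps6kb1 was 0.499, 0.508 and 0.448 against 0.565, 0.484 and 0.458 (exact permutation p = 0.8, adjusted 0.8).

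**Figure D4:**
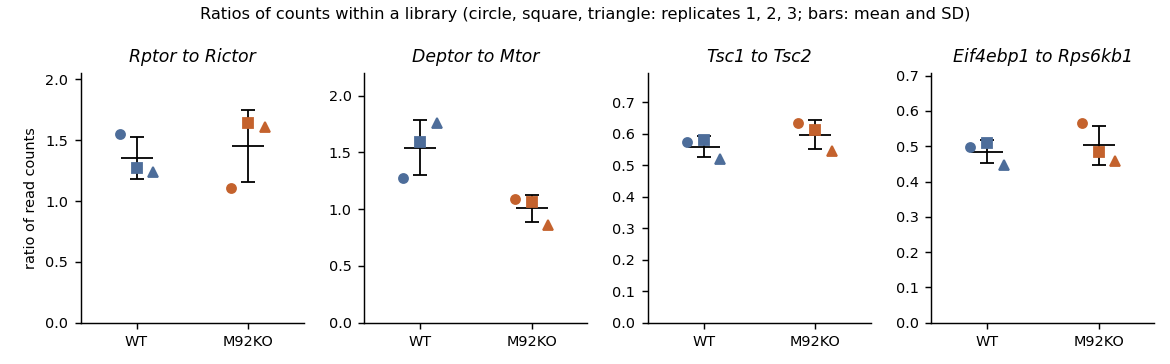
Ratios of read counts within each library (vertical axes from 0) for 4 pairs of genes in WT and M92KO mice, with mean and SD as bars. For Deptor to Mtor the M92KO ratios, 0.865 to 1.09, lie below the WT ratios, 1.28 to 1.76, and the groups overlap for the other 3 pairs.

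Across the 6 libraries, the 10 genes varied in both directions relative to each other. Over the 45 pairs, Pearson's r of log2 CPM had a median of -0.011, with 22 pairs above 0 and 23 below. Mtor, Rptor, Tsc1 and Tsc2 were positively correlated in all pairs among them, from 0.45 (Tsc1 and Tsc2) to 0.83 (Rptor and Tsc2). The most negative values were -0.91 for Rictor and Tsc1 and -0.89 for Tsc2 and Eif4ebp1. These values describe few points that share library and depth. The genes most like Deptor among 13327 genes with a mean of at least 1 CPM were Pias1 (r = 0.998), which encodes a SUMO ligase, Mfsd14a (0.993), Helb (0.990), which encodes a DNA helicase, Plagl1 (0.990), which encodes a zinc finger transcription factor, and Lmbr1 (0.989). Pias1 had 35.0, 37.2 and 37.8 CPM in WT and 31.3, 33.9 and 32.1 CPM in M92KO mice, and Plagl1 had 2.64, 3.44 and 3.21 against 1.84, 2.47 and 2.07 CPM. In both genes, as in Deptor, replicate 1 was the lowest library of each genotype. Being chosen for that likeness among 13327 genes over 6 libraries, they carry no test.

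The rest of the pathway was described with 71 other genes in 9 lists, of which 70 were tested. Slc7a11, a cystine transporter controlled by ATF4, was left out by the filter with at most 7 reads in a library. None of the 70 passed the adjusted threshold, and 10 of the 70 (14.3%) had an unadjusted p under 0.05, beside 12.4% of all genes. Of these 10, 1 (1.43% of the 70, beside 5.47% of all genes) was higher in M92KO mice and 9 (12.9%, beside 6.92%) were lower. That split depended on the processing, as did the split of all genes. Under the study's steps 5 were higher and 4 lower, beside 3.58% and 3.005% of all genes. With offsets for GC content and length 5 were higher and 8 lower, beside 6.54% and 6.902%. With a library omitted the split ranged from 0 higher and 3 lower (without WT replicate 2 or WT replicate 3) to 6 higher and 10 lower (without M92KO replicate 1). Of all genes, 9.62% were higher and 8.96% lower without M92KO replicate 1. These shares were 3.32% and 4.33% without WT replicate 2, and 3.46% and 4.49% without WT replicate 3. The groups did not overlap in 12 of the 70 (17.1%), beside 18.4% of all genes, and the median log2 fold change was -0.0013. No test was made of the lists as such.

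**Figure D5:**
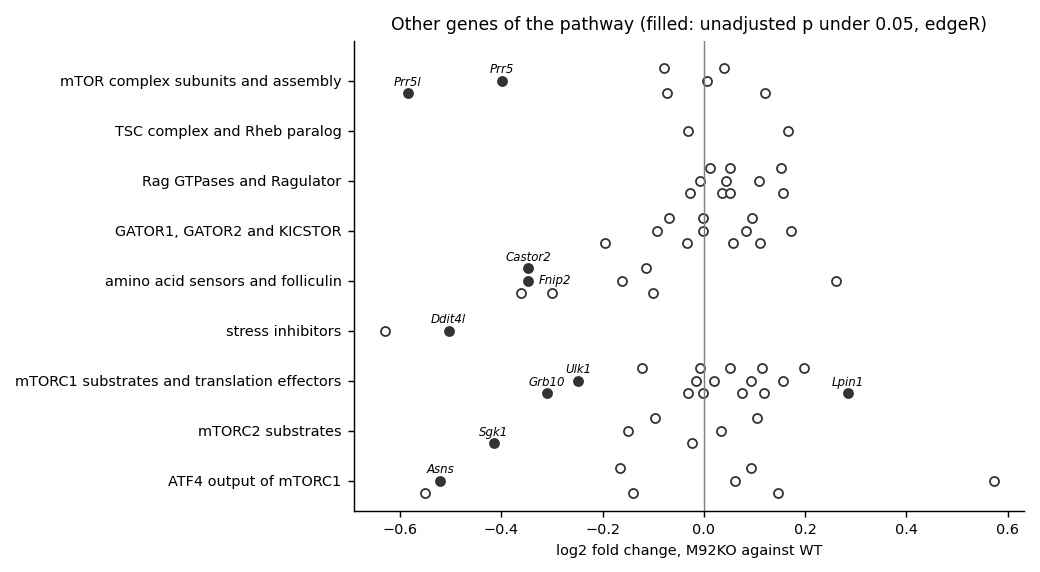
Log2 fold change of M92KO against WT (horizontal axis) for 70 other genes of the pathway, each a point in the row of its list, filled where the unadjusted edgeR p was under 0.05. The 10 filled points are Lpin1 at 0.28 and 9 genes between -0.59 and -0.25, and the Rag GTPases and Ragulator span -0.027 to 0.16 without a filled point.

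Among the other subunits and assembly factors of the complexes, 2 of 7 (28.6%) were under the unadjusted threshold, beside 12.4% of all genes. Both were lower, beside 6.92% of all genes, and both encode PROTOR proteins, which bind Rictor in mTORC2. Prr5 had 4.91, 5.28 and 6.10 CPM in WT and 3.34, 4.58 and 4.43 CPM in M92KO mice (log2 fold change -0.40 ± 0.16, SE; adjusted p = 0.378). Prr5l had 1.43, 1.17 and 1.61 against 1.01, 0.977 and 0.826 CPM (-0.59 ± 0.23; adjusted p = 0.362). In neither gene did the groups overlap, and both were low in this muscle. No fit with a library left out had both under the unadjusted threshold. Prr5 alone was under it without WT replicate 1 or M92KO replicate 2 or 3. Prr5l alone was under it without WT replicate 2 or M92KO replicate 1. Without WT replicate 3 neither was. The DESeq2 Wald test called only Prr5 at that threshold, and the study's steps only Prr5l. Mlst8, the subunit shared by both complexes, had a log2 fold change of -0.079, and Mapkap1, which encodes the mTORC2 subunit SIN1, of 0.12. Neither Mlst8 nor Mapkap1 was under the unadjusted threshold.

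In the TSC complex, Tbc1d7, its small subunit, had 18.2, 19.9 and 20.5 CPM in WT and 23.0, 21.7 and 21.01 CPM in M92KO mice, with no overlap (0.17 ± 0.082; adjusted p = 0.468). The Rag GTPases and the Ragulator, which hold mTORC1 at the lysosome when amino acids are present, had log2 fold changes between -0.027 and 0.16. Of that list, 0 of 10 were under the unadjusted threshold, beside 12.4% of all genes. Lamtor3, a Ragulator subunit, had the smallest p of that list, with 45.9, 43.2 and 41.9 against 45.3, 51.9 and 48.9 CPM (0.16 ± 0.075; adjusted p = 0.451). The GATOR complexes and KICSTOR, which relay amino acid levels to the Rags, likewise had 0 of 11 under the threshold, with Kptn at 16.0, 16.8 and 17.2 against 15.5, 13.7 and 14.4 CPM (-0.20 ± 0.087; adjusted p = 0.410).

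Amino acid sensors and the folliculin complex, which acts on the Rag GTPases, had a log2 fold change below 0 in 7 of 8 genes. Over all genes tested it was below 0 in 7897 of 15788. The median log2 fold change of the 8 was -0.23, beside -8.1e-05 over all genes. Only 2 of the 8 (25%) were under the unadjusted threshold, beside 12.4% of all genes. Both were lower, beside 6.92% of all genes. Fnip2, a folliculin partner, had 15.2, 16.8 and 16.1 CPM in WT and 12.0, 13.0 and 12.7 CPM in M92KO mice, without overlap (-0.35 ± 0.086; adjusted p = 0.195). Castor2, of the CASTOR family of arginine sensors, had 63.3, 68.8 and 64.3 against 41.4, 55.5 and 57.4 CPM (-0.35 ± 0.12; adjusted p = 0.312), also without overlap. Sesn2, of the leucine-sensing sestrins, was the gene with a higher M92KO value, at 0.26 ± 0.18.

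Of the stress-responsive inhibitors that act through the TSC complex, Ddit4l, also called REDD2, had 303, 373 and 377 CPM in WT and 346, 198 and 198 CPM in M92KO mice. M92KO replicate 1 stood with the WT libraries and the other 2 far below them. The log2 fold change was -0.50 ± 0.21 (adjusted p = 0.388). Without M92KO replicate 1 it was -0.83 with an adjusted p of 0.0076, so 1 library decided whether Ddit4l passed. In that fit 401 of all genes passed the adjusted threshold, against 0 with all libraries.

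Downstream of mTORC1, 3 of 16 substrates and translation effectors (18.8%, beside 12.4% of all genes) were under the unadjusted threshold. Grb10, an adaptor that dampens insulin signalling once mTORC1 has stabilized it, had 52.7, 57.6 and 68.2 CPM in WT and 48.8, 48.6 and 46.7 CPM in M92KO mice, without overlap (-0.31 ± 0.097; adjusted p = 0.271). Ulk1, the kinase that starts autophagy and is held back by mTORC1, had 117, 127 and 126 against 114, 92.0 and 105 CPM (-0.25 ± 0.088; adjusted p = 0.325). Lpin1, the phosphatidate phosphatase lipin 1, had 474, 412 and 470 against 474, 626 and 550.1 CPM (0.28 ± 0.11; adjusted p = 0.361). Its M92KO replicate 1 lay within the WT range. Rps6, the substrate of S6K1, and Eif4e, the cap-binding protein held by 4E-BP1, had log2 fold changes of 0.076 and 0.052.

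Of the mTORC2 substrates, 1 of 6 (16.7%, beside 12.4% of all genes) was under the unadjusted threshold. Sgk1, a kinase that controls ion transport, had 453, 631 and 726 CPM in WT and 516, 418 and 425 CPM in M92KO mice (-0.42 ± 0.16; adjusted p = 0.367), so that the spread within WT alone was wide and the groups overlapped. Akt1 had a log2 fold change of -0.096 and Akt2, the isoform of insulin-responsive tissues, of 0.033. Of the 8 tested genes of the ATF4 programme that mTORC1 drives, 1 (12.5%, beside 12.4% of all genes) was under the threshold. This was Asns, the asparagine synthetase, with 2.01, 3.08 and 2.54 against 1.64, 1.99 and 1.68 CPM, without overlap (-0.52 ± 0.21, adjusted p = 0.374). Atf4 itself had a log2 fold change of 0.093.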

How the data were processed

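RNA from gastrocnemius muscle of 3 WT and 3 M92KO mice was sequenced after SMARTer mRNA-Seq library preparation. The authors deposited raw read counts per gene symbol; the submitters' processing notes name the build GRCm38 (mm10), and the aligner, counter and annotation are not given in the sources used here. From these counts, edgeR 4.0.16 (R 4.3.3) was run with TMM scaling, filterByExpr (minimum count 10, minimum total 15) and the quasi-likelihood test on genotype, and p-values were Benjamini-Hochberg adjusted with a threshold of 0.05. CPM use the TMM-scaled totals, and log2 CPM a prior count of 2. Single genes and ratios were tested by exact permutation, and the p-values of the ratios were Benjamini-Hochberg adjusted with scipy 1.17.1. Positions, lengths, GC content and 3′UTRs came from GENCODE M21; of 34714 symbols, 25739 matched directly, 420 by synonym and 8555 did not. Alternatives were DESeq2 1.42.0, its size factors, the study's quantile and limma 3.58.1 steps, other filters, offsets for GC content and length, a replicate block and leaving out each library. The test was tried on simulated counts first. Named were the 10 genes, every other pathway gene with an unadjusted p under 0.05 and the smallest p of each list, and the 5 genes most like the member with the smallest p. Other genes named with their log2 fold change were chosen for their role after their values were seen. The members and lists were chosen with earlier results of these data known. Mir92b had 0 rows in the table.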

Additional observations from a re-analysis of the deposited data

How the results depend on the processing

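Deptor kept its direction and an unadjusted p under 0.05 in every alternative run, with adjusted p-values between 0.0176 and 0.590, and passed the adjusted threshold only with the DESeq2 Wald test, where the count of the 10 genes called was 1. At the unadjusted threshold the count over the 10 genes became 2 with offsets for GC content and length, alone or with the replicate block (Deptor and Mtor), and lay between 1 and 2 when a library was left out (Mtor without M92KO replicate 1, Rheb without M92KO replicate 2). Of all genes tested in those fits, 13.4% were under that threshold with the offsets alone and 11.04% with offsets and replicate block. The causes were not tested. For the other pathway genes, the count with a library left out lay between 3 (without WT replicate 2 or WT replicate 3) and 16 (without M92KO replicate 1) at the unadjusted threshold, being 6 without M92KO replicate 2, and between 0 and 1 at the adjusted one. The share of all genes moved likewise, from 12.4% with all libraries to 7.65% and 7.95% without WT replicate 2 or 3, 18.6% without M92KO replicate 1 and 10.5% without M92KO replicate 2. Over all genes the adjusted count was 0 in edgeR as reported, 322 with the DESeq2 Wald test, 42 with the study's steps, 401 in edgeR without M92KO replicate 1 and between 0 and 6 in the other edgeR fits, including 6 without a filter on low counts, 5 without WT replicate 1 and 2 with the replicate block. With the longest transcript, 3 of 10 genes kept their place in the order of levels.

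Genes near 0 changed sign. With a library left out, log2 fold changes ran from -0.051 to 0.12 for Rptor, -0.0033 to 0.090 for Tsc1, -0.11 to 0.040 for Tsc2, -0.063 to 0.060 for Akt1s1, -0.041 to 0.030 for Rps6kb1 and -0.023 to 0.12 for Eif4ebp1. The log2 ratio differences ran from -0.010 to 0.27 for Rptor to Rictor and from -0.039 to 0.11 for Eif4ebp1 to Rps6kb1. Offsets for GC content and length gave 0.0072 for Tsc2 and 0.039 for Rps6kb1, or 0.0043 and 0.037 with the replicate block, and the study's steps gave -0.0037 for Akt1s1.

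The WT and M92KO libraries share replicate numbers, but the deviations of same-numbered libraries correlated at 0.081, 0.038 and 0.015, and the numbers were not taken as pairs. With the replicate block, 1 of the 10 genes and 8 of the other 70 were under the unadjusted threshold, and 1691 of all genes against 1955. The M92KO libraries were all smaller than the WT libraries, so depth and genotype cannot be told apart.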

Other observations

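Several stress and nutrient genes around mTOR varied more between mice of 1 genotype than between the genotypes. Ddit4, which encodes the hypoxia- and glucocorticoid-responsive mTORC1 inhibitor REDD1, had 20.8, 45.0 and 107 CPM in WT and 24.2, 24.9 and 62.5 CPM in M92KO mice, and its log2 fold change of -0.63 had a standard error of 0.56. Chac1, a glutathione-degrading enzyme of the ATF4 programme, had 66.4, 99.7 and 64.8 CPM in WT and 93.1, 19.0 and 45.4 CPM in M92KO mice. Sesn3, a sestrin, had 3.20, 2.85 and 3.21 CPM in WT and 0.893, 4.15 and 3.61 CPM in M92KO mice, with M92KO replicate 1 below the other 5 libraries. These 3 genes were chosen after their values were seen. None was under the unadjusted threshold in the test as reported, whereas Ddit4 was under it with the replicate block, with and without offsets for GC content and length, and Chac1 without M92KO replicate 1.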
